A study of Mus musculus with 16 samples.

Results

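The cytochrome P450 genes of the mouse were followed through RNA of liver, kidney, brain and other tissues. Members were the protein-coding genes of GENCODE M21 on GRCm38 whose symbol is Cyp, 1 or 2 digits and a lower-case letter. There were 99 such genes among 22028 protein-coding genes, and all 99 had an assembled transcript, as did 40400 GENCODE genes in all. The members fell into 16 families and 39 subfamilies, with 49 genes in family 2, 20 in family 4 and 9 in family 3.

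RNA came from adult C57BL/6J mice and was enriched with capture probes, oligonucleotides that pull chosen cDNA out of a library before it is sequenced. Of 2 probe designs, one aimed at loci of long noncoding RNA (lncRNA) and the other at annotated splice junctions, and each was used on 8 tissues, with 1 library per tissue and design and 16 libraries in all. The 4 brain tissues were the whole brain and its cerebellum, olfactory bulb and cortex, and the 4 nonbrain tissues were liver, kidney, heart and an organ labelled testis. ERCC spike-in mix 1 went into whole brain, cerebellum, liver and heart, and mix 2 into the other 4 tissues. Brain RNA was extracted with TRIzol and nonbrain RNA with RNeasy columns from 2 pieces of an organ of 1 mouse, and brain and nonbrain libraries were hybridized to the probes in separate pools. The extraction and the pool thus cannot be told apart from the difference between brain and nonbrain tissues. The number of mice and their sex were not given, whole brain contains the other brain regions, and p-values over tissues say nothing of the variation between mice.

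Cytochromes P450 are heme enzymes that put oxygen into small molecules. Families 1 to 3 mainly clear drugs, toxins and other foreign compounds, family 4 mainly hydroxylates fatty acids, and other families make or degrade bile acids, oxysterols, steroid hormones and vitamins A and D. Most members sit in the membrane of the endoplasmic reticulum and take electrons from the reductase encoded by Por. In mammals the liver is the main site of the drug-clearing members, and the kidney is rich in members that act on fatty acids.

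Near the end of every P450 protein a cysteine binds the iron of the heme. Codons of this loop were found in 91 of the 99 members, and those of the Cyp2j genes are shown because these genes, neighbors on chromosome 4, had their highest levels in different tissues. The 30 coding bases run 5′ to 3′, with the cysteine codon in capitals.
Cyp2j5: ttctcaatgggaaaaagagctTGTcttgga
Cyp2j11: ttctcaatgggaaagagagctTGCcctggg
Cyp2j13: ttttcaatgggaaagcgagctTGCctcgga
Cyp2j6: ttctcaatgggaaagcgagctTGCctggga
Cyp2j9: ttctcaatgggaaaacgtgctTGTcttgga
Cyp2j12: ttctcattgggaaagagagctTGCcctgga
Cyp2j5, Cyp2j11 and Cyp2j13 were highest in kidney, Cyp2j6 in olfactory bulb, Cyp2j9 in cerebellum and Cyp2j12 in the tissue labelled testis. The codon for the cysteine was TGT in Cyp2j5 and Cyp2j9 and TGC in the rest of those shown.

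Libraries held 8930235 to 43889288 fragments, of which ERCC spike-ins took 7.81% to 45.6%. The splice junction library labelled testis contradicted that name, since keratinocyte markers reached a summed level of 4149 in it against 1.36 for testis germ cell markers. In the lncRNA library of that label the sums were 290 and 34.9. Germ cell markers did not mark testis in the lncRNA design, since their sum was 1154 in kidney. Liver, kidney, heart and brain tissues had their highest marker levels where the labels put them, with an exception for astrocyte markers. These also reached a splice junction level of 645 in liver, and in the lncRNA design they were highest in liver (718, against 588 in whole brain). A level here is an FPKM value, in which fragments are scaled to the length of the transcript and to the library total without spike-ins, summed over the transcripts of a gene. In RNA of whole tissue, fewer cells of a type and less RNA per cell cannot be told apart. Splice junction probes left out the most abundant junction regions, ranked on brain RNA, so levels of different members also depend on their probes. Ranks, sums and shares of members below carry this limit.

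Liver gave the most captured P450 RNA by far in the splice junction design. In the splice junction design, the members took 5.16% of the fragments outside the spike-ins in liver, or 1925460 fragments, and 2.33% in kidney, or 663875 fragments. The share was 0.566% in the tissue labelled testis, 0.188% in heart and 0.154% to 0.241% in the brain tissues. Summed levels were 26778 in liver, 12883 in kidney, 2827 in the tissue labelled testis, 1246 in olfactory bulb, 1174 in brain, 998 in heart, 987 in cortex and 795 in cerebellum. Liver and kidney lay above the other libraries in both designs. In the lncRNA design the share was 1.14% in kidney, 0.778% in liver, 0.218% in the tissue labelled testis, 0.0209% in heart and 0.00253% to 0.00494% in the brain tissues, so that kidney there lay above liver.

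Of the 99 members, 70 had a mean deposited value of at least 10 over the 16 libraries and entered the tests, and 29 did not. Of all 99, Cyp2c66 and Cyp4a30b had 0 fragments in every library and 12 had under 10 fragments in each of them. In the splice junction design, 42 members were under 3 fragments in all 4 brain tissues, and 10 were under 3 fragments in all 4 nonbrain tissues. The low counts thus lay mostly on the brain side.

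Among the 70 tested members, 41 had their highest splice junction level in liver, 9 in kidney, 8 in the tissue labelled testis, 6 in olfactory bulb, 3 in cerebellum, 2 in cortex, 1 in whole brain and 0 in heart. A level of 100 or more was reached by 31 members in liver, 15 in kidney, 5 in the tissue labelled testis, 3 each in brain, cortex and olfactory bulb, and 1 each in cerebellum and heart. The 10 highest members held 66.0% of the summed level in liver, 90.1% in kidney, 81.3% in the tissue labelled testis and 54.0% in heart. Liver RNA was spread over more members than kidney RNA. The index tau, which runs from 0 for an even level to 1 for a single tissue, had a median of 0.73 over the 70 members and 0.27 over all 19355 genes tested.

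**Figure D1:**
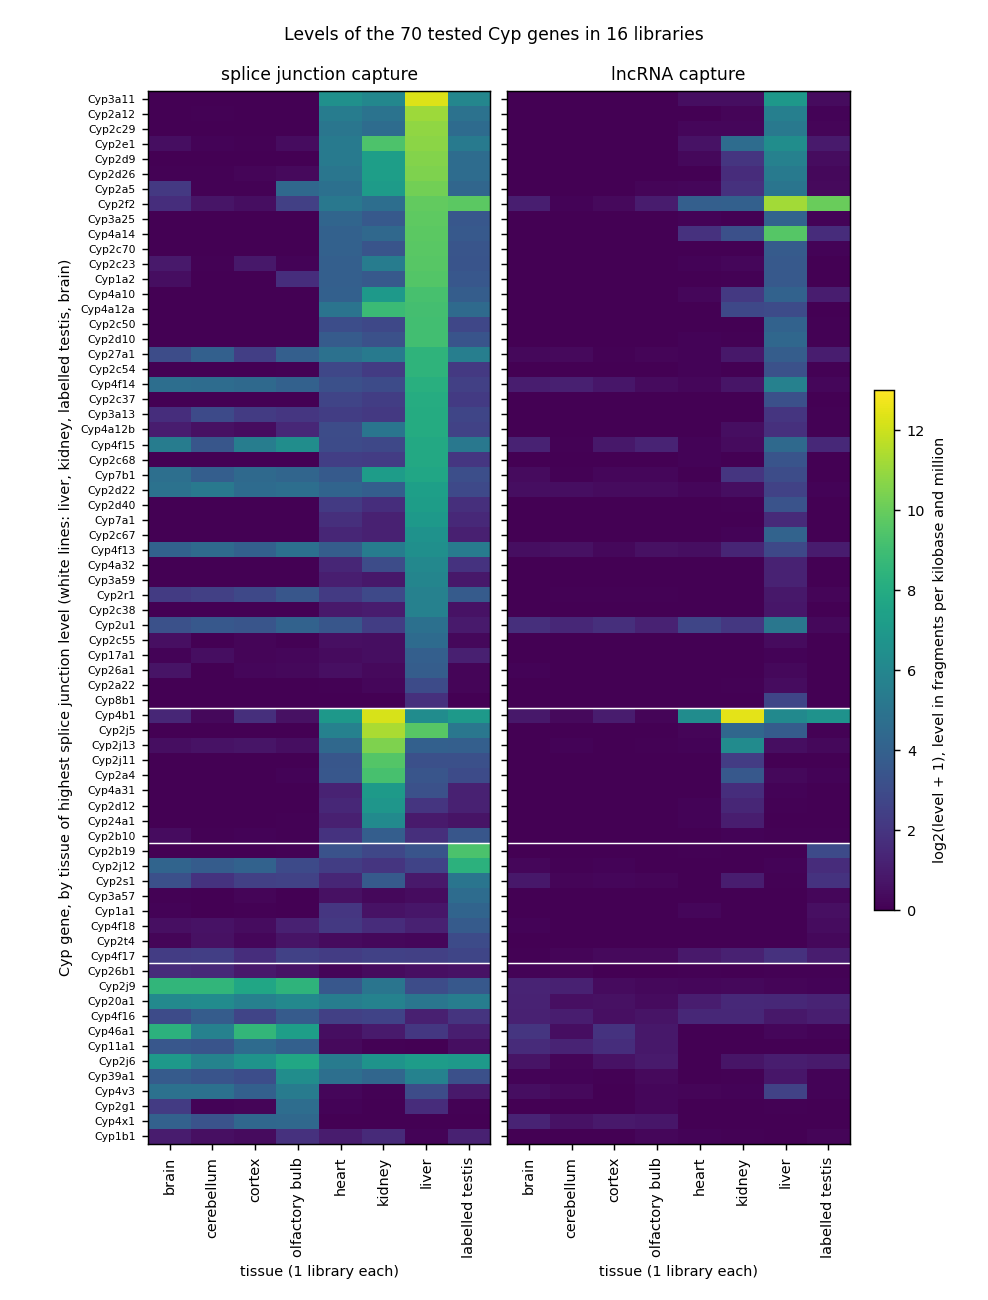
Levels of the 70 tested members in 16 libraries, as log2(level + 1) with the level in FPKM, for splice junction capture (left) and lncRNA capture (right); rows are ordered by the tissue of the highest splice junction level. The block of 41 members highest in liver fills the top, the 9 kidney members follow, and the lncRNA panel is darker except for a few rows such as Cyp4b1 and Cyp2f2.

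In the heat map of levels, the top of the liver block was held by members of families 2 and 3. Cyp3a11, the main mouse liver member of the drug-clearing family 3 (chr5:145854426-145879964, minus strand), had a splice junction level of 5087 in liver, 90.8 in heart, 63.5 in kidney, 61.5 in the tissue labelled testis and 0 in all 4 brain tissues. Its lncRNA level was 121 in liver, 0.301 to 0.414 in the other nonbrain tissues and 0 in the brain tissues. Liver was apart from every other library in both designs. Whether such low levels in the other nonbrain tissues are RNA of those tissues, or fragments given to the wrong library of the shared hybridization pool, was not tested.

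Next came Cyp2a12 at 2206, Cyp2c29 at 1838, Cyp2e1 at 1705, Cyp2d9 at 1513, Cyp2d26 at 1434 and Cyp2a5 at 1216 in liver. Cyp2e1, which oxidizes ethanol and other small solvents, was also high in kidney at 654 and stood at 39.8 to 40.5 in heart and the tissue labelled testis. Cyp2a5, the mouse coumarin hydroxylase, had 20.1 in olfactory bulb and 3.43 in brain against 0.0528 in cortex and 0.0538 in cerebellum. Cyp2f2, which turns naphthalene into a toxic epoxide in mouse airway cells, was almost as high in the tissue labelled testis (859) as in liver (952).

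Kidney was led by Cyp4b1, an oxidase of fatty acids and of some toxins, and by Cyp2j genes. Cyp4b1 (chr4:115624725-115647723, minus strand) reached 4669 in the splice junction design in kidney, 124 in the tissue labelled testis, 120 in heart, 79.1 in liver and 0.231 to 2.35 in the brain tissues. In the lncRNA design it reached 5738 in kidney and 71.4 to 96.4 in the other nonbrain tissues. Kidney was above all other libraries in both designs.

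Cyp2j5, an epoxygenase of arachidonic acid found in mouse kidney tubules (chr4:96628773-96664154, minus strand), had a splice junction level of 2609 in kidney, 781 in liver, 51.6 in heart, 34.5 in the tissue labelled testis and 0 in all brain tissues. Cyp2j13 reached 1411 in kidney and 14.2 to 20.3 in the other nonbrain tissues, and Cyp2j11 reached 733 against 7.87 to 10.2. Cyp24a1, which degrades active vitamin D, had 73.0 in kidney and at most 1.23 in any other library. Kidney and liver shared Cyp2j5 and Cyp4a12a at high levels, while Cyp2j11, Cyp2j13 and Cyp24a1 stood far higher in kidney.

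The libraries labelled testis had members of their own. Cyp2b19, an arachidonic acid epoxygenase of mouse keratinocytes, had 633 there and at most 9.24 elsewhere, and Cyp2j12 had 321 there and at most 17.3 elsewhere. Cyp1a1, which is induced by dioxin through the Ahr receptor, was also highest there at 17.5. The summed keratinocyte marker level given above was highest in the same library, and its part in these levels was not tested.

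Many low P450 levels in the nonbrain tissues lay at a similar percentage of the source tissue. The percentages that follow are from splice junction capture unless stated, with fragments scaled to the library total without spike-ins. Over the 36 members that were highest in liver and had at least 1000 fragments there, the median value in heart was 2.10% of that in liver, the median in kidney 2.08% and the median in the tissue labelled testis 1.53%. In the 4 brain tissues, which were captured in another pool, the medians were 0 to 0.0125%. The markers of hepatocytes had medians of 2.02% in heart, 1.496% in kidney and 1.34% in the tissue labelled testis. For the 8 members highest in kidney and with at least 1000 fragments there, the medians were 1.598% in heart, 1.65% in liver and 1.10% in the tissue labelled testis. The medians of members and markers thus lay near each other, while single members highest in liver reached 85.3% in kidney and 88.5% in the tissue labelled testis. In lncRNA capture, 31 members highest in liver had at least 100 fragments there. Their medians were 0.391% in heart, 1.07% in kidney and 0.429% in the tissue labelled testis, and those of hepatocyte markers 0.308% to 0.314%. Whether such low levels are expression in the tissue that shows them was not tested. The comparisons of brain with nonbrain tissues and of liver with kidney are therefore also given with low values set to 0. These were deposited values of at most 3% of the highest library of the same pool and design, a setting chosen after the data were seen. Deposited values are on another scale, on which Cyp3a11 in kidney was 0.73% of liver, against 1.25% on scaled fragments.

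**Figure D2:**
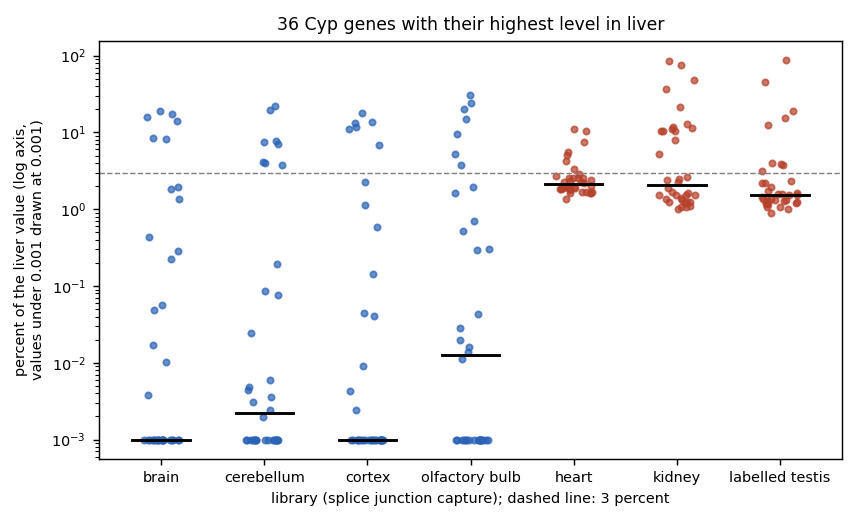
Splice junction fragments of 36 members highest in liver, scaled to the library total without spike-ins, as a percent of the liver value on a log axis. There is 1 point per member and library, and the median is a bar. Most points of the nonbrain libraries gather near the medians of 1.53% to 2.10%, just under the dashed line at 3%, and others reach up to 88.5%. Most brain points lie far lower.

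Brain and nonbrain tissues were compared to ask which members set the brain apart. Of the 70 members tested, 4 were higher in brain (limma, Benjamini-Hochberg adjusted p under 0.05 over all genes, n = 4 tissues each), where 21.8% of all genes tested were called higher. Lower in brain were 39 members, where 12.3% of all genes were called lower, and 27 members passed in neither direction. Cyp4x1, Cyp11a1, Cyp46a1 and Cyp2j9 were the 4 that rose. All 4 had brain levels that did not overlap the nonbrain ones on the mean log2 scale, as 22.4% of all genes did on that side.

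Cyp4x1, an orphan member of family 4 that lies on chromosome 4 (chr4:115106323-115134281, minus strand), had splice junction levels of 15.4 in brain, 9.08 in cerebellum, 19.5 in cortex and 20.3 in olfactory bulb. Kidney had 0.0252, from 3 fragments, and heart, liver and the tissue labelled testis had 0 fragments. The log2 difference of the deposited values was 7.66 ± 0.43 (SE, n = 4 each, adjusted p = 7.91e-06 in limma), which depends on the pseudocount. Relative to depth, the lowest brain library was at least 163-fold higher than 3 fragments in any of the nonbrain libraries at 0.

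Cyp46a1 hydroxylates cholesterol and thereby lets neurons export it. It had 330 in brain, 51.1 in cerebellum, 384 in cortex and 157 in olfactory bulb, and 0.417 to 3.28 in the nonbrain tissues. Cerebellum was the lowest brain tissue and still above every nonbrain tissue. The log2 difference was 5.49 ± 0.90 (adjusted p = 0.00205). Its promoter is shown because it was rich in CG pairs. In the RefSeq window from 250 bases before to 50 after the start (GRCm38.p6, chr12:108334066-108334365, plus strand), CG pairs are in capitals.
Cyp46a1 promoter: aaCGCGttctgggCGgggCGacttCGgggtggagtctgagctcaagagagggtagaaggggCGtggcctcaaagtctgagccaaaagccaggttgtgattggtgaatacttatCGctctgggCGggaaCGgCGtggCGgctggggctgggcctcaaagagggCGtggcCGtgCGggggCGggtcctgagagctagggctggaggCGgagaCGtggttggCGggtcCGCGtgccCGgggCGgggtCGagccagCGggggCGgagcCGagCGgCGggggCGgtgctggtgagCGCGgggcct
The window held 31 CG pairs and 70.3% G and C, against a median of 7 pairs over all 32851 RefSeq promoters.

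Cyp2j9, another Cyp2j epoxygenase, had 370 in brain, 374 in cerebellum, 203 in cortex and 348 in olfactory bulb, against 32.3 in kidney and 7.03 to 10.9 in the rest. Its log2 difference was 2.63 ± 0.47 (adjusted p = 0.00313). In the lncRNA design alone, where it had 7.2 to 36.0 fragments per brain library, the difference was 1.69 and the adjusted p was 0.116 in limma. Its neighbor Cyp2j6 was high on both sides, at 56.0 to 215 in brain and 41.5 to 146 in nonbrain tissues, and gave a log2 difference of -0.18 ± 0.89 (adjusted p = 0.893). Both genes shared a gene model of the assembly with Cyp2j8. Transcripts with an intron chain absent from GENCODE M21 took 98.7% of Cyp2j9 and 100% of Cyp2j6 splice junction fragments. The split between the genes thus depends on how the authors' software divided fragments among isoforms.

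**Figure D3:**
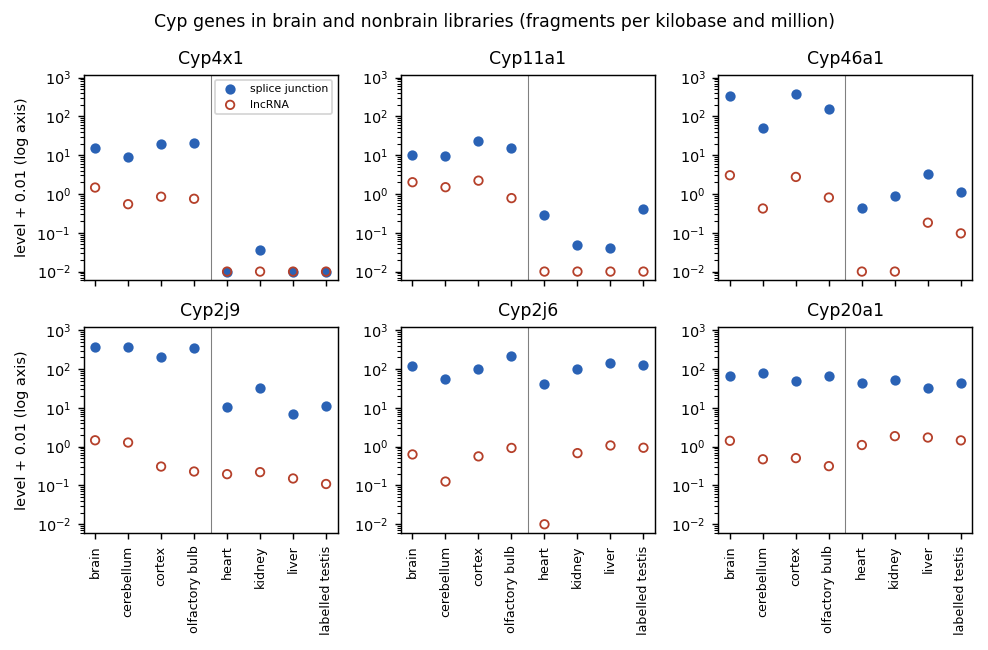
Level + 0.01 on a log axis, with the level in FPKM, of 6 members in each library; filled points are splice junction capture, open points lncRNA capture, and the grey line parts brain from nonbrain tissues. Cyp4x1, Cyp11a1, Cyp46a1 and Cyp2j9 lie higher left of the line, while the ranges of Cyp2j6 and Cyp20a1 overlap across the line in both designs.

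Cyp11a1 encodes the enzyme that cleaves the side chain of cholesterol, the first step of steroid hormone synthesis. Its splice junction level was 10.4 in brain, 9.35 in cerebellum, 22.5 in cortex and 15.0 in olfactory bulb, and 0.0303 to 0.403 in the nonbrain tissues. The log2 difference was 6.43 ± 0.45 (adjusted p = 2.32e-05). The groups did not overlap in either design.

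Almost all of this RNA came from an assembled transcript that joins a lincRNA to Cyp11a1. The transcript begins at chr9:57998041, the annotated start of the lincRNA Gm17322 and 8370 nt upstream of annotated Cyp11a1, which GENCODE places at chr9:58006411-58027023 on the plus strand. It has 10 exons and 2765 nt, of which 1273 nt lie in exons of Gm17322 and 1637 nt in exons of Cyp11a1, with 145 nt in both. Its first exon has 278 nt and its second 995 nt. It had 920 splice junction fragments in brain, 686 in cerebellum, 1670 in cortex and 796 in olfactory bulb, and under 1 in each nonbrain tissue.

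A variant with 9 exons, which skips the long second exon, had 86.4 fragments in olfactory bulb, 25 in cortex and 12.7 in the tissue labelled testis. Transcripts with an intron chain absent from GENCODE M21 took 97.5% of all Cyp11a1 splice junction fragments. The assembled transcript that starts at 58014671, within annotated Cyp11a1, had under 1 fragment in each brain tissue and 7.33 in the tissue labelled testis. One that starts at the annotated start, 58006411, had 24.0 in brain, 1.47 in cerebellum, 20.2 in cortex and 20.3 in olfactory bulb. Another, from 58014997, had 3.84 to 9.74 in the brain tissues. In the lncRNA design, the transcript of Gm17322 alone had 2138 fragments in brain, 1581 in cerebellum, 3984 in cortex and 1477 in olfactory bulb, against 9 in heart, 12 in kidney, 0 in liver and 21 in the tissue labelled testis. The lincRNA and the joined transcript were thus both found in all 4 brain tissues. Whether the joined RNA yields the enzyme was not measured. The rise of Cyp11a1 is a rise of the transcripts assigned to it, and fragments on its own exons were not counted apart.

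**Figure D4:**
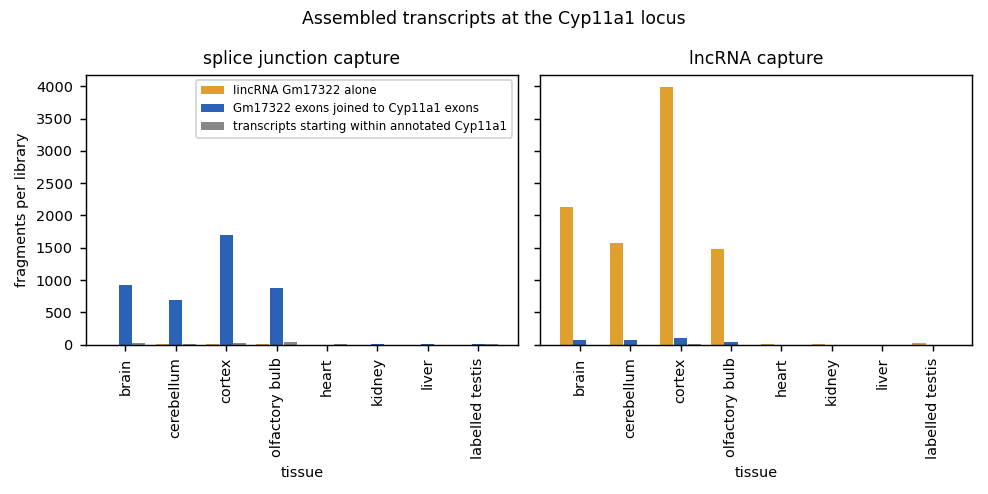
Fragments per library at the Cyp11a1 locus, as bars from 0, for the lincRNA Gm17322 alone, for Gm17322 exons joined to Cyp11a1 exons and for transcripts that start within annotated Cyp11a1. Splice junction capture (left) shows mostly the joined transcripts, up to 1670 fragments for the 10-exon form in cortex, and lncRNA capture (right) mostly Gm17322 alone, up to 3984 in cortex.

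The bars for the locus place most of the brain signal at 1 start. RefSeq has a start there as well, at 57998024, and the assembled start lies 17 nt downstream of it. The sequence around it (GRCm38.p6, chr9:57997774-57998073, plus strand) is shown with the 33 bases that belong to the assembled transcript in capitals, and it holds 7 CG pairs and no TATAAA.
Cyp11a1 upstream start: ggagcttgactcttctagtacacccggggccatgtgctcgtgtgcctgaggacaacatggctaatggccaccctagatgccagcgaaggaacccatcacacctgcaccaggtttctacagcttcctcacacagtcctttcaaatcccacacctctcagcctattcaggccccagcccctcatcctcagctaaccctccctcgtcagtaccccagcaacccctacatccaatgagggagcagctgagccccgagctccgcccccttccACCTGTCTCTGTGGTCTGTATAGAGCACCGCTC

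Families 2, 3 and 4 held 34 of the 39 members lower in brain and 55 of the 70 members tested. The largest log2 differences were those of Cyp4a14 (-10.35 ± 1.56, adjusted p = 0.00132), Cyp3a11 (-9.89 ± 1.65, adjusted p = 0.00219) and Cyp2e1 (-9.41 ± 1.44, adjusted p = 0.00144). Cyp4a14 hydroxylates fatty acids and is a target of the receptor Ppara. It had 834 in liver, 11.3 to 19.8 in the other nonbrain tissues and 0 in the brain tissues. The next were Cyp2j5 (-9.32), Cyp4b1 (-9.17), Cyp2d9 (-8.94), Cyp4a10 (-8.82), Cyp4a12a (-8.51), Cyp2c29 (-8.26) and Cyp2f2 (-8.12), with adjusted p of 0.00082 to 0.0044.

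In the splice junction design, 19 of the tested members had 0 fragments in every brain tissue, so their fitted differences depend on the pseudocount. Against 3 fragments per brain library, Cyp3a11 was at least 94059-fold higher in liver relative to depth, Cyp2j5 at least 31471-fold higher in kidney, and Cyp2c29, Cyp2d9 and Cyp4a14 at least 26287-fold, 16850-fold and 16418-fold higher in liver. The median log2 difference over the 70 members was -4.19, and -3.51 with counts under 3 fragments set to 3. Over all genes the medians were 0.17 and -0.02. The size of the members' median moved with the setting, to -1.85 on fragments scaled to the library total without spike-ins, -2.27 with the 3% setting and -2.09 in the lncRNA design alone.

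Of the 70 members, 44 had all brain tissues below all nonbrain tissues, as 14.9% of all genes did. With values of at most 3% of the highest library of the pool set to 0, 3 members were called lower (7.84% of all genes) and the same 4 were called higher (19.3% of all genes). The 3 were Cyp2b10, a target of the receptor Nr1i3 (-3.81 ± 0.57, adjusted p = 0.00118 before that setting), Cyp1a1 (-3.95 ± 0.96, adjusted p = 0.0134) and Cyp4f17 (-2.16 ± 0.44, adjusted p = 0.00567). Without the libraries labelled testis, 41 members were lower and 4 higher. The count of members lower in brain therefore rests largely on low values in the nonbrain libraries other than the source tissue.

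Brain tissues also shared members with the rest of the body. Of the 10 members with the highest mean splice junction level in brain tissues, Cyp2j9 (324) and Cyp46a1 (231) passed the test, and Cyp2j6 (124), Cyp20a1 (65.6), Cyp4f15 (44.7), Cyp2d22 (28.2), Cyp4v3 (28), Cyp39a1 (27.5), Cyp4f14 (21) and Cyp4f13 (19.8) did not. Cyp4v3 was not shared in the splice junction design, at 14.8 to 41.9 in brain and 0.0602 to 7.26 in nonbrain tissues. In the lncRNA design it was highest in liver, at 4.82 against 0.0308 to 0.401 in brain tissues. Its gene model in the assembly also held transcripts of Klkb1 and Gm45753. Cyp20a1, an orphan member, had the lowest tau of the 70 at 0.10, with splice junction levels of 50.1 to 77.5 in brain and 32.9 to 53.7 in nonbrain tissues. Its lncRNA levels lay the other way, at 0.305 to 1.41 and 1.09 to 1.86. Over both designs the log2 difference of the deposited values was -0.94 ± 0.35 (adjusted p = 0.0633), against -0.18 (adjusted p = 0.643) on scaled fragments and -1.06 (adjusted p = 0.028) with quantile scaling, all in limma. In the splice junction design its deposited values were 1112 to 1726 in brain and 1380 to 2362 in nonbrain tissues, so that the side with more Cyp20a1 turned with the scaling there. The 10 highest members held 90.2% of the summed level of whole brain.

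Olfactory bulb stood out among the brain tissues for several members. Cyp39a1, an oxysterol hydroxylase, had 80.9 there against 7.50 to 12.5 in the other brain tissues and 53.3 in liver. Cyp2g1, a member known from the olfactory mucosa, had 23.8 there, 3.79 in whole brain, 0.0789 in cerebellum and 0.116 in cortex. Cyp1a2 and Cyp2a5, both high in liver, had 2.23 and 20.1 there and at most 3.43 in the other brain tissues. Of 4 markers of the olfactory mucosa, Omp and Cnga2, which mark olfactory sensory neurons, were also highest there. Omp had 1.52 in olfactory bulb and 0.0902 to 0.216 in the other brain tissues, and Cnga2 had 7.36 and 0.313 to 0.945, with whole brain next in both. Gnal and Adcy3, which other neurons also make, were higher in whole brain, and the 4 summed to 48.8 in olfactory bulb against 24.4 to 61.1 in the other brain tissues. Hepatocyte markers summed to 0.225 in olfactory bulb. The part of mucosa cells in these levels was not tested.

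Liver and kidney together were set against the other 6 tissues. Of the 70 members, 5 were higher (limma, adjusted p under 0.05), where 1.43% of all genes were, and 0 were lower, where 0.279% of all genes were. The 5 were Cyp7b1 (5.16 ± 0.78, adjusted p = 0.0225), Cyp4a12b (6.24 ± 1.11, adjusted p = 0.036), Cyp4a12a (9.97 ± 1.78, adjusted p = 0.0361), Cyp4a31 (6.66 ± 1.24, adjusted p = 0.0418) and Cyp2j5 (10.69 ± 2.00, adjusted p = 0.0421), all as log2 differences with n = 2 and 6 tissues. Cyp7b1 hydroxylates oxysterols and steroids, and the Cyp4a genes hydroxylate fatty acids. Cyp7b1 had 206 in liver and 143 in kidney against 7.74 to 26.1 in the other tissues, and no other tissue reached either.

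The median log2 difference over the 70 members was 5.02 (4.03 with counts under 3 fragments set to 3), against -0.21 (-0.16) over all genes. With the 3% setting, 12 members were higher, where 295 of all 19355 genes were. Leaving out 1 tissue changed the count strongly, to 0 without liver, cerebellum, cortex or olfactory bulb, 1 without brain, 11 without heart or the tissue labelled testis and 18 without kidney. The count over all genes moved as well. From 276 it became 0 without liver, 73 to 95 without 1 brain tissue, 379 without kidney, 539 without heart and 773 without the tissue labelled testis.

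Liver and kidney were next set against each other, with no test because each had 1 library per design. At least 2-fold higher in liver in both designs were 47 members, where 10.7% of all genes were, and at least 2-fold higher in kidney were 9, where 13.8% of all genes were. The remaining 14 met neither condition, and among them Cyp2b19 went at least 2-fold in opposite directions in the 2 designs. The median log2 difference over the 70 members was 4.02 toward liver (3.36 with counts under 3 fragments set to 3), against -0.01 (0.15) over all genes. With the 3% setting the same 47 and 9 members were counted. For a member highest in liver or kidney within the pool, that setting can only widen the difference, so the count is no check on it. On scaled fragments 37 of the 47 remained toward liver, where 4.28% of all genes were, and 8 of the 9 toward kidney, where 8.38% were, and the median fell to 2.14.

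The largest log2 differences toward liver, averaged over the designs, were those of Cyp3a25 (8.46), Cyp2c50 (8.46), Cyp2c70 (8.23), Cyp2c54 (7.98) and Cyp3a11 (7.82). Subfamilies Cyp2c and Cyp3a are known for drug-clearing enzymes, and Cyp2c70 is the member that makes the muricholic acids of mouse bile. Except for Cyp3a11, with 12 fragments, these members had 0 lncRNA fragments in kidney. The deposited splice junction values of all of them in kidney were 0.626% to 0.73% of those in liver. The differences and their order thus depend on the pseudocount and on low values, and in the splice junction design alone Cyp7a1 (7.39) and Cyp4v3 (7.39) came before all of them. The gene model of Cyp4v3 in the assembly also held transcripts of Klkb1 and Gm45753. Toward kidney the largest were those of Cyp2j11 (-6.51), Cyp2j13 (-6.49), Cyp4b1 (-5.50), Cyp2a4 (-5.16) and Cyp24a1 (-5.001), followed by Cyp2d12 (-4.19), Cyp4a31 (-3.39), Cyp1b1 (-3.36) and Cyp2s1 (-3.18).

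**Figure D5:**
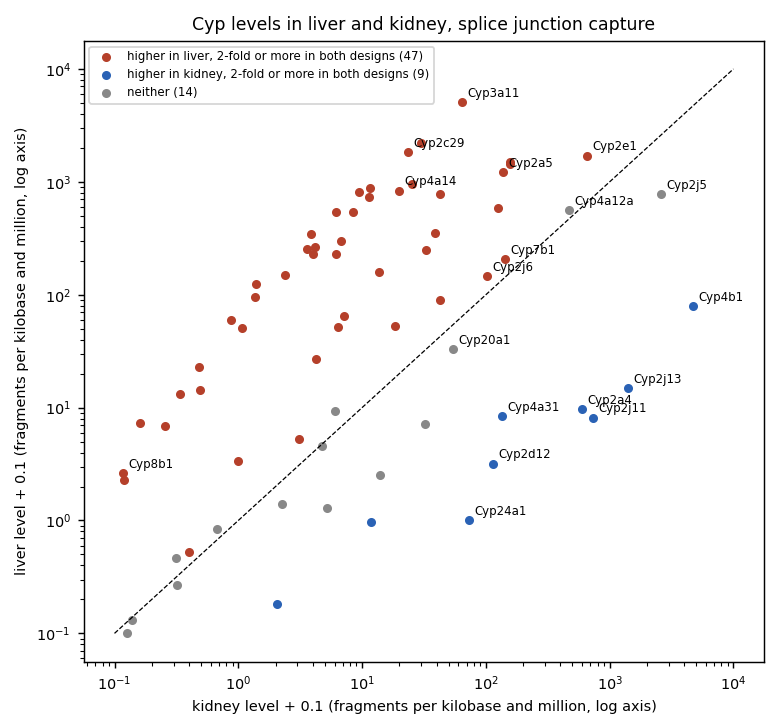
Level + 0.1 of the 70 tested members in liver against kidney, both in FPKM on log axes, for splice junction capture; the dashed line marks equal levels. Of the points, 47 mark members at least 2-fold higher in liver in both designs, 9 mark members higher in kidney and 14 neither.

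In the plot of liver against kidney, whole subfamilies kept to one side while others split. All 10 tested Cyp2c members, of 15 in the subfamily, were highest in liver. Below the filter, Cyp2c69 was highest in the tissue labelled testis (3.15 against 0.239 in liver). Of 6 tested Cyp2d members, 5 were highest in liver and Cyp2d12 in kidney (114 against 3.07), and of 6 tested Cyp4a members, 5 were highest in liver and Cyp4a31 in kidney (134 against 8.25). Of 4 tested Cyp2a members, 3 were highest in liver and Cyp2a4 in kidney (599 against 9.60). These single kidney members have close liver paralogs.

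Close paralogs can share reads, so their sequences bear on how far these splits can be trusted. The coding sequences of 40 pairs of members were at least 90% identical, and those of 19 pairs at least 95%. Cyp2a4 and Cyp2a5 are 98.4% identical, with 23 mismatches, and 12.5% of their windows as long as 1 sequenced mate are the same. Cyp2a4 encodes a steroid hydroxylase. Coding bases 596 to 655 are shown because reads from such a stretch can tell the genes apart, with the 4 differing bases in capitals.
Cyp2a4: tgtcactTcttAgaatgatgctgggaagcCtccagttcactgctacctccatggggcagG
Cyp2a5: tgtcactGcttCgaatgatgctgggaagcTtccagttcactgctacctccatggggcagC
Cyp2a4 had 599 in kidney and Cyp2a5 had 138, while in liver Cyp2a4 had 9.60 and Cyp2a5 had 1216. The pair thus changed order between the organs.

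Cyp4a10 and Cyp4a31 are 96.6% identical, and 7.29% of their windows are the same. In coding bases 106 to 165 they differ at 6 bases, in capitals.
Cyp4a10: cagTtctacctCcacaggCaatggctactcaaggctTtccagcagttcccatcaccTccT
Cyp4a31: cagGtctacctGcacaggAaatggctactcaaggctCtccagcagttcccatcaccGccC
Cyp4a10 had 591 in liver and 125 in kidney, and Cyp4a31 had 8.25 and 134. Cyp3a41a and Cyp3a41b share 85.5% of their windows and Cyp4a12a and Cyp4a12b 41.0%, so the levels within these pairs are uncertain. In 5 gene models of the assembly, transcripts of 2 or more members were joined, among them Cyp2j9 with Cyp2j8 and Cyp2j6, Cyp4a10 with Cyp4a31, and Cyp4a12a with Cyp4a12b and Cyp4a29.

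Families 1 to 3 hold the drug-clearing members and also some with other roles, such as Cyp2r1, Cyp2c70 and the epoxygenases Cyp2j5, Cyp2j9 and Cyp2b19. Of their 61 genes, 43 were tested. In brain 1 was higher, namely Cyp2j9, and 28 were lower, where 21.8% and 12.3% of all genes were, and with the 3% setting 1 was higher and 2 lower. Between the organs 30 were higher in liver and 6 in kidney, where 10.7% and 13.8% of all genes were. Family 4 had 15 of its 20 genes tested, with 1 higher and 8 lower in brain, which became 1 and 1 with the 3% setting, and 8 higher in liver and 2 in kidney, against the same shares of all genes. The median log2 difference of brain to nonbrain was -5.45 for families 1 to 3 and -2.16 for family 4. In sum over the splice junction levels, family 4 had 5526 in kidney and 3018 in liver, whereas families 1 to 3 had 7026 in kidney and 22951 in liver.

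The enzymes of bile acid and oxysterol metabolism were all tested, and all 7 were higher in liver than in kidney, where 10.7% of all genes were. On scaled fragments 5 of them remained so. Cyp7a1, the rate-limiting enzyme of bile acid synthesis, had 125 in liver, 1.29 to 2.42 in the other nonbrain tissues and at most 0.0217 in brain tissues. Cyp27a1, which starts the alternative route, had 355 in liver, 27.9 to 46.2 in the other nonbrain tissues and 4.30 to 14.9 in the brain tissues. Cyp8b1, which makes cholic acid, had 2.52 in liver from 183 fragments, with 5.56 from 119 fragments in the lncRNA design, and at most 0.018 elsewhere. It was among the members not called lower in the lncRNA design, and how far the probes set its splice junction level was not tested. Cyp2c70 had 814 in liver. Of the 7, Cyp7a1, Cyp27a1 and Cyp2c70 fell in brain and Cyp46a1 rose, with a median of -2.04, where 12.3% of all genes were lower and 21.8% higher. With the 3% setting only Cyp46a1 kept its call, and on scaled fragments Cyp2c70 and Cyp46a1 did.

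Among the 6 enzymes of steroid hormone synthesis, only Cyp11a1 and Cyp17a1 had values for a test. Cyp17a1 had 14.2 in liver and at most 1.21 elsewhere (brain to nonbrain -2.03 ± 0.94, adjusted p = 0.124). Cyp19a1, the aromatase that makes estrogens, had 0.661 in brain, 0.0154 in cerebellum, 0.226 in cortex, 0.249 in olfactory bulb, 0.0639 in the tissue labelled testis and 0 in heart, kidney and liver. Cyp11b1 and Cyp11b2, of the adrenal cortex, and Cyp21a1 did not exceed 0.537 anywhere.

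Of the 6 genes of vitamin A and D metabolism, 4 were tested. Cyp24a1 fell in brain (-5.06 ± 1.18, adjusted p = 0.011), a call lost with the 3% setting (-2.64, adjusted p = 0.33 in limma) and on scaled fragments (-2.09, adjusted p = 0.0856). Cyp27b1, which activates vitamin D in the kidney, was too low for the test but highest in kidney at 1.24. Cyp2r1, which takes the step before it, had 51.8 in liver and 3.68 to 12.5 elsewhere, and Cyp26a1, which degrades retinoic acid, had 13.1 in liver and at most 0.629 elsewhere. Cyp26b1, of the same function, had 2.06 in brain, 1.82 in cerebellum, 0.864 in cortex, 0.546 in olfactory bulb and 0.147 to 0.573 in the nonbrain tissues. Its log2 difference of brain to nonbrain was 0.58 ± 0.59 (adjusted p = 0.477).

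In adult mice many liver members differ by sex. Of those known as male-predominant, Cyp2d9 had 1513 in liver, Cyp4a12a 558, Cyp4a12b 250, Cyp7b1 206 and Cyp2u1 26.6. Of 11 known as female-predominant, 3 passed the filter, and in liver Cyp17a1 had 14.2, Cyp2a4 9.60, Cyp2b10 2.41, Cyp2c40 1.43, Cyp2b9 1.10 and the other 6 at most 0.74. The lists did not overlap in liver level. Y-linked genes summed to 203 to 533 in every splice junction library. Xist had an lncRNA level of 0.215 to 1.00 in 7 libraries and 12 in the library labelled testis.

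Partners of the P450 enzymes were also measured. Of 17 partner and heme synthesis genes, 15 were tested. In brain 0 were higher and 5 lower, where 12.3% of all genes were lower, namely Ephx2 (-5.28), Fdx1 (-2.86), Hmox1 (-2.67), Alas1 (-2.64) and Cyb5r3 (-2.58). Of 18 alternatives, Ephx2 lost the call in 0, Fdx1 in 2, Cyb5r3 in 6, Alas1 in 10 and Hmox1 in 11, and with the 3% setting only Ephx2 kept it. In liver and kidney 3 were higher, where 1.43% of all genes were, namely Por, the reductase (2.95 ± 0.52, adjusted p = 0.0356), Cyb5a, a second electron donor (3.57 ± 0.38, adjusted p = 0.0103), and Alas1, which starts heme synthesis (3.68 ± 0.72, adjusted p = 0.0484). Cyb5a lost the call in 1 of the 18 alternatives, Por in 9 (adjusted p up to 0.227 in limma) and Alas1 in 11 (up to 0.323), while all 3 kept it with the 3% setting. Por had 114 in liver, 101 in kidney and 18.2 to 52.1 elsewhere.

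Of 16 genes for regulators, 15 were tested. Cux2, a repressor in female mouse liver that neurons also make, was the 1 higher in brain (4.76 ± 0.90, adjusted p = 0.00423), and 7 were lower, among them Hnf4a (-9.69), Nr1h4 (-6.20), Nr1i2 (-4.88), Ppara (-4.27), Foxa2 (-3.56) and Rxra (-3.10), where 21.8% and 12.3% of all genes were. Of 18 alternatives, Nr1i2 lost the call in 8 and Foxa2 in 10, and with the 3% setting only Ppara and Rxra of the 7 kept it. Nr1h4, the bile acid receptor, had 496 in kidney and 201 in liver and was higher in the 2 organs than in the other tissues (7.61 ± 1.28, adjusted p = 0.0313), a call lost in 9 of 18 alternatives. Nr1i2, the receptor through which drugs induce Cyp3a11, had 83.4 in liver, 6.25 in kidney, 1.77 in heart, 1.31 in the tissue labelled testis and at most 0.0839 in brain tissues.

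The promoters of the members were searched for short motifs. Windows from 250 bases before to 50 after the start were taken from RefSeq for 86 starts of 76 members. The letters TATAAA, searched on both strands, were in 39.5% of them and in 13.6% of all RefSeq promoters. Among tested members, they were in 18 of 34 promoters of those highest in liver, in 2 of 7 for kidney and in 1 of 10 for brain tissues. At 40 to 20 bases before the start they were in 13 of the 34 liver promoters, 1 of 7 kidney promoters and 0 of 10 brain promoters, against 2.50% of all promoters. Members that were not tested were left out of these tissue counts. Among those left out was Cyp19a1, highest in brain, with TATAAA at 29 and 31 bases before its start. The median number of CG pairs was 2.5 over the members' promoters, 8 over those of tested members highest in brain tissues and 7 over all promoters.

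The letters CAAAGTCCA, a form of the site of Hnf4a, were in 12.8% of the members' promoters and 0.475% of all, searched on both strands and with no overlap with TATAAA. The 11 promoters were those of Cyp8b1, of the Cyp2c genes Cyp2c40, Cyp2c65, Cyp2c67, Cyp2c68, Cyp2c69 and Cyp2c70 and of the Cyp3a genes Cyp3a11, Cyp3a16, Cyp3a41a and Cyp3a41b, and promoters of close paralogs are not independent. The promoter of Cyp3a11 (GRCm38.p6, chr5:145879805-145880104, minus strand) and that of Cyp2e1 (chr7:140763569-140763868, plus strand) are shown as those of 2 leading liver members, with TATAAA and, in Cyp3a11, CAAAGTCCA in capitals.
Cyp3a11 promoter: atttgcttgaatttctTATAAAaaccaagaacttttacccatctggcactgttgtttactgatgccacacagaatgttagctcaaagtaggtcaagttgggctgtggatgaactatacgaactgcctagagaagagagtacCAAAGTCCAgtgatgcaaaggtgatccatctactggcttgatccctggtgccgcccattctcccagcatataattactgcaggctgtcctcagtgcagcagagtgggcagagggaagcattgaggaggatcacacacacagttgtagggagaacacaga
Cyp2e1 promoter: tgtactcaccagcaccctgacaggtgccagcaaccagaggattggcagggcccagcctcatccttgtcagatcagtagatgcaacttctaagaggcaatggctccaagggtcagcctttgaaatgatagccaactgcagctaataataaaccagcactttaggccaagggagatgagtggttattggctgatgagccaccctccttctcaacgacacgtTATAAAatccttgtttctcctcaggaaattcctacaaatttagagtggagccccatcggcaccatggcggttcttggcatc
TATAAA begins 31 bases before the start in Cyp2e1 and 234 bases before it in Cyp3a11. Each match is a match of letters, and binding was not measured.

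The lncRNA design was not aimed at these genes, and most were lower in it. Of the 70 members, 64 were lower in the lncRNA design than in the splice junction design (limma with tissue as a factor, n = 8 pairs), where 51.6% of all genes were, and 0 were higher, where 40.3% of all genes were. The largest log2 differences were those of Cyp2j6 (-7.23 ± 0.44), Cyp3a13 (-7.18 ± 0.31) and Cyp2j9 (-6.67 ± 0.39), with adjusted p of at most 1.34e-08. The median over the members was -3.32 (-2.12 with counts under 3 fragments set to 3), against -1.09 (-0.56) over all genes.

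The 6 members not called were Cyp4b1 (0.12 ± 0.17), Cyp8b1 (0.03 ± 0.50), Cyp2f2 (-0.02 ± 0.28), Cyp2u1 (-0.31 ± 0.30), Cyp4a14 (-0.70 ± 0.31, adjusted p = 0.0516) and Cyp2a22 (-1.29 ± 0.64). In the lncRNA design Cyp2f2 had 2314 in liver and 1038 in the tissue labelled testis, and Cyp4a14 had 748 in liver. The 6 held 81.5% to 97.7% of the summed P450 level of the nonbrain lncRNA libraries, with Cyp4b1 at 5738 of 5936 in kidney, and 18.9% to 25.4% of that of the brain ones. A level in the lncRNA design therefore cannot be set beside that of another member. Splice junction levels of different members also depend on their probes, to an extent that was not tested. With the 3% setting, 34 of the 70 members were lower in the lncRNA design, where 9477 of all 19355 genes were. Without tissue as a factor 31 members were lower, where 8561 of all genes were. In both settings the share of the members was near that of all genes.

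The assembly placed 267 transcripts on the members, 264 of them spliced. Of the spliced transcripts, 146 had an intron chain of GENCODE M21 and 118 did not, and 76 of those 118, from 46 members, had at least 100 splice junction fragments. Of the 63 members with at least 1000 splice junction fragments, 16 had over 50% of them on such chains, and the median was 10.0%. Among the 16 were Cyp2j5, Cyp2j6 and Cyp7b1 with 100%, Cyp2j9 with 98.7%, Cyp4f14 with 97.5%, Cyp2c29 with 85.3% and Cyp2d9 with 82.7%.

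With at least 100 fragments, 10 transcripts of 7 members began 400 nt or more before the annotated start, and 9 transcripts of 7 members ended 400 nt or more past the annotated end. In Cyp46a1, the annotated chain of 15 exons had 10320 fragments in brain, 52.8% of the gene, and a chain of 10 exons that starts inside the gene at chr12:108352352 had 9185, or 47.0%. Of the Cyp46a1 fragments of cerebellum, cortex and olfactory bulb, the shorter chain took 43.3%, 47.4% and 45.0%, so the split was alike in the 4 brain tissues.

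In kidney, a Cyp2j13 chain that ends 14164 nt downstream of the annotated end had 49003 fragments, or 65.5% of the gene. A Cyp2j9 chain ends 151617 nt downstream and took 58.4% of the gene in brain, and a Cyp4a12a chain starts 56962 nt upstream, over exons of Cyp4a29, and took 59.1% in kidney. Chains of this reach pass neighboring paralogs. All Cyp7b1 chains start 505 nt upstream of the annotated start. The authors' software divided fragments among isoforms, so values of single transcripts are estimates.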

How the data were processed

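Members, lists and alternatives were chosen with earlier results of these data known. Per the labels and methods, the authors aligned read pairs with TopHat2, assembled transcripts with Cufflinks 2.2.1 along GENCODE M4, and estimated abundance in Cuffnorm 2.2.1. The deposited values are a signal, Cuffnorm's normalized isoform counts per transcript and library. The deposited transcript annotation, which holds exon coordinates and carries no unit, was used for assignment.

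Each assembled transcript went to the GENCODE M21 gene with the largest exonic overlap on its strand, and values were summed per gene. Low sums of gene models were whole multiples of a step per library (100% in each), and division by the step gave fragments. The strand was used, and 1 assembled transcript had no value. Columns of other series numbered 0.

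Genes with a mean value of at least 10 were tested on log2(value + 1) with limma 3.58.1 in R 4.3.3 (trended eBayes), at a Benjamini-Hochberg adjusted p under 0.05 over 19355 genes. Tissues were means of their 2 libraries. The procedure was tested on simulated data. Fold changes on this scale understate changes of low genes. Alternatives were other pseudocounts, no filter, quantile scaling, fragments scaled to library totals without spike-ins, gene models of the assembly, single designs and each tissue left out. Named genes were those of the role lists, the 10 highest members of liver, kidney and brain, the members higher in brain and the 10 that fell most, the largest liver to kidney and design differences, kidney or liver exceptions among close paralogs, and partners and regulators past a test. Cyp2j6, Cyp2g1, Cyp2b19, Cyp2j12, Cyp1a1, Cyp1a2, Cyp4f17 and the subfamily exceptions outside these were chosen after their values were seen. Sequences came from RefSeq (GRCm38.p6) and GENCODE. Python 3.11.15, NumPy 2.4.6, pandas 2.3.3, SciPy 1.17.1, Matplotlib 3.10.9 and Biopython 1.88 were used. Depth limits low values, and counts of 0 allow up to 3 fragments, for counting error only. The values of 1 gene of the regulator list are not reported here.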

Additional observations from a re-analysis of the deposited data

Results flagged for a closer look

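In 13 of 44 groups of 4 tissues examined, 1 tissue lay far from the other 3 in the mean log2 value over both designs. Chance alone marks about 1 group in 20, but the genes were named partly for large differences between tissues, so that the 13 cannot be read against that share. Among nonbrain tissues, liver stood apart for Cyp3a11 (15.76, next 8.49), Cyp2c29 (13.79, next 7.12), Cyp2c50 (12.31, next 4.16), Cyp2c70 (12.26, next 4.73) and Cyp3a13 (11.27, next 5.00). Kidney stood apart for Cyp4b1 (17.57, next 12.17), Cyp2j13 (14.21, next 7.72) and Cyp2j11 (11.00, next 4.48), and for Cyp4x1 at 0.79, which rests on 3 fragments. Among brain tissues, olfactory bulb stood apart for Cyp24a1 (0.69, next 0.23), Cyp2c54 (0.43, next 0) and Cyp2j11 (0.25, next 0), and cerebellum for Cyp4a10 (0.41, next 0), all at values of a few fragments beside values at or near 0, where a single fragment is enough to set a tissue apart.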

How the results depend on the processing

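No paired analysis of brain with nonbrain tissues was possible because the mouse behind each library was not given. Only the comparison of designs was paired, by tissue. The count of members higher in brain was 4 and stayed at 3 to 5 under every alternative run. The 39 members lower in brain became 24 on fragments scaled to the library total without spike-ins, 8 in the lncRNA design alone and 3 with values of at most 3% of the highest library of the pool set to 0 (added after the data were seen), and leaving out 1 tissue gave 26 to 41. The 5 members higher in liver and kidney became 1 with a pseudocount of 0.1, 8 with 10, 2 with quantile scaling, 2 with gene models of the assembly, 3 without transcripts that overlap 2 or more coding genes, 1 in the splice junction design alone and 12 with the 3% setting, and leaving out 1 tissue gave 0 to 18. Over all genes, the 276 higher became 295 with the 3% setting and 0 to 773 with 1 tissue left out. In the comparison of designs, 1 member was higher in the lncRNA design without the filter and 1 with gene models, and the 64 lower members became 34 with the 3% setting and 31 without tissue as a factor. Over all genes, the 9980 lower became 9477 and 8561 in these 2 settings. The cause of these moves was not tested beyond what each setting leaves out. Scaling moved the median log2 difference of brain to nonbrain over all genes from 0.17 to -0.17 with quantile scaling and 0.38 on scaled fragments, and the calls from 4220 higher and 2371 lower to 3590 and 3657, and 5255 and 1216. Of 797 alternative values of named genes, 645 stayed on their side of the threshold, 152 lost it in the same direction and 0 changed direction.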
